A study of Homo sapiens with 6 samples.

Results

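The 8 genes KLK2, KLK3, KLK4, ACPP, FOLH1, TMPRSS2, SLC45A3 and AMACR, most of which encode secreted or cell-surface products of the prostate luminal cell, were followed through PRMT5 knockdown in LNCaP cells. They were taken by gene symbol from the deposited count table, and 8 of 8 were found among its 12768 genes. LNCaP is an androgen-responsive human prostate cancer line, and every culture carried a stably transfected plasmid whose hairpin RNA, switched on by doxycycline, targets PRMT5. The PRMT5 enzyme dimethylates arginines symmetrically, on histones and splicing proteins among others. Doxycycline was given for 4 days to 3 cultures (knockdown), and 3 cultures were kept for 4 days without it (no knockdown). All cultures grew in RPMI medium with fetal bovine serum. The labels list no culture with doxycycline but without the PRMT5 hairpin, so the effects of knockdown and of doxycycline cannot be told apart, and they do not say whether the transfected cells were 1 clone. In these bulk RNA libraries, fewer cells that express a gene and less of its RNA in each cell also cannot be told apart.

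Luminal cells line the prostate gland and release its fluid. Kallikrein-related serine proteases and prostatic acid phosphatase are secreted into that fluid, while prostate-specific membrane antigen, the protease TMPRSS2 and the transporter prostein (SLC45A3) sit in cell membranes. Several of these genes are textbook targets of androgen signalling, which acts on DNA at palindromic response elements. AMACR, a racemase of peroxisomes and mitochondria used as a tissue marker of prostate cancer, is neither secreted nor a surface protein, so the group's description holds for the other 7 genes.

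The 3 kallikrein genes lie together on chromosome 19 (GRCh38, GENCODE 29), with KLK3 on the plus strand at chr19:50854915-50860764, KLK2 on the plus strand at chr19:50861568-50880567 and KLK4 on the minus strand at chr19:50906352-50910738. By RefSeq the start sites of KLK3 and KLK2 are 18.5 kb apart, and those of KLK2 and KLK4 are 37.3 kb apart. Promoters are shown for the kallikreins, since these neighbours in 1 locus gave different values, and for ACPP, which had the largest difference of the 8. Each runs from 250 bases before the RefSeq start site (GRCh38.p14) to 50 bases into the gene, on the gene's strand. Capitals mark matches to GNACA, any 4 bases, then GTNC, a relaxed form of the androgen response element. It was searched on both strands, on the other of which it reads GNAC, any 4 bases, then TGTNC. The first is KLK3 (chr19:50854665-50854964, plus strand), the second KLK2 (chr19:50873189-50873488, plus strand), the third KLK4 at the first of its 2 start sites (chr19:50910689-50910988, minus strand) and the fourth ACPP, listed by RefSeq as ACP3 (chr3:132317157-132317456, plus strand).
KLK3: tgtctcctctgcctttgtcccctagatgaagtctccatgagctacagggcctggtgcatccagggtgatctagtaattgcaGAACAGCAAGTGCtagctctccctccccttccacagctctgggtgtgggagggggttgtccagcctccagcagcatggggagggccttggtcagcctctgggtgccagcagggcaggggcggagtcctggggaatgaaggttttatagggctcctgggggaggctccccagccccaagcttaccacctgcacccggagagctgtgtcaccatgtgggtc
KLK2: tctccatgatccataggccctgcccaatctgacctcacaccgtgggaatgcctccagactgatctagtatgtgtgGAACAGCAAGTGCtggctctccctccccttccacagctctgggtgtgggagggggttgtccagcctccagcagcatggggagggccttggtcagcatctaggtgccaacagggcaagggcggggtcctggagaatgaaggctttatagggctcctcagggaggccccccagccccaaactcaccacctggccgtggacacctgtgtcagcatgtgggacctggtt
KLK4: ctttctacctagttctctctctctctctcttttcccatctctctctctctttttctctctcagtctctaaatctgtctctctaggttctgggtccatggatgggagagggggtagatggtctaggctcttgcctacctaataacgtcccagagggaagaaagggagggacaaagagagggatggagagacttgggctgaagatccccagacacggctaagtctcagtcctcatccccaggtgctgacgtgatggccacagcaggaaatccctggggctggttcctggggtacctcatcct
ACPP: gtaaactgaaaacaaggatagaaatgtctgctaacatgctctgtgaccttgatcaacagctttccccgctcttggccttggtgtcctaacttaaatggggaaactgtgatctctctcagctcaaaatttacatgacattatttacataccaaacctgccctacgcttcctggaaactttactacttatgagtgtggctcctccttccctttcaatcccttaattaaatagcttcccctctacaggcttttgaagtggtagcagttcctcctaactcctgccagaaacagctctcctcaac

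The KLK3 and KLK2 promoters were 84.2% identical (245 of 291 aligned bases), and both held the same 13 bases, GAACAGCAAGTGC, at -169 to -157 and at -175 to -163 from the start site. The element was found in 2.19% of 35116 RefSeq promoters of this length. It was not found in the promoter windows of KLK4 (at either start site), ACPP, SLC45A3 or AMACR. The shorter motif AGAACA, searched on both strands as AGAACA or TGTTCT, occurred in 14.8% of all promoters and, among the 6 matched genes, in KLK3 alone, at -170, where it overlaps the element. FOLH1 and TMPRSS2 were not searched. A match describes the letters in this window and is not a measured binding site. Absence of a match covers only this window and this relaxed form of the element, and more distant sites were not searched.

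FOLH1, which encodes prostate-specific membrane antigen, was by far the most abundant of the 8 transcripts. Without knockdown it stood at 872 ± 15.8 CPM per kilobase (counts per 1000000 reads, scaled by the TMM method and divided by the counted gene length, SD, n = 3), rank 22 of 12768 genes. KLK3, which encodes prostate-specific antigen, followed at 98.4 ± 28.7 CPM per kilobase and ranked 504. TMPRSS2 stood at 31.1 ± 7.06 and ACPP at 27.5 ± 2.71 CPM per kilobase, and the libraries of these neighbours in the order overlapped. Below them came SLC45A3 (18.4 ± 1.01 CPM per kilobase), KLK4 (13.9 ± 1.21), AMACR (11.8 ± 0.722) and KLK2 (6.14 ± 1.83), none of whose no-knockdown libraries overlapped with those of its neighbour in the order. KLK2 thus ranked last of the 8 and 8477 among all genes, although its protein is a close relative of prostate-specific antigen. KLK4 and AMACR were barely apart, with a lowest KLK4 library of 12.58 and a highest AMACR library of 12.46 CPM per kilobase. Of the 50-base stretches of AMACR transcripts, 60% also occur in other genes, so its level and place in the order are uncertain.

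**Figure D1:**
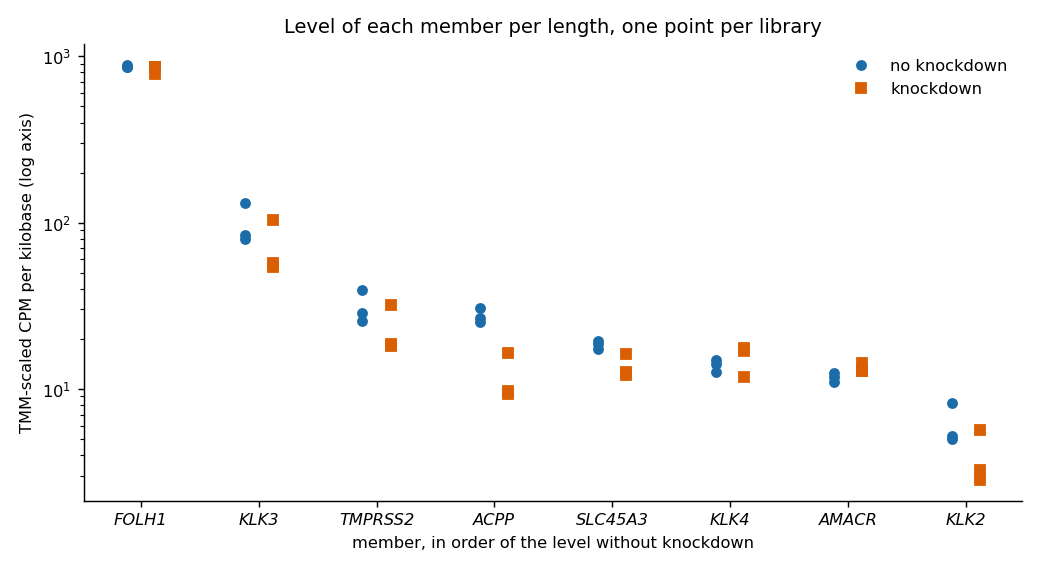
Level of each gene in TMM-scaled CPM per kilobase of counted length (log axis), with 1 point per library, circles for the 3 cultures without knockdown and squares for the 3 with knockdown. FOLH1 sits near 872 CPM per kilobase and KLK2 lowest, and the knockdown squares of ACPP lie below its circles.

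The labels were checked first. PRMT5 stood at 88.7, 91.96 and 82.8 CPM without knockdown and at 9.69, 10.8 and 10.6 CPM with it, so each library lay on the side its label gives. Libraries held 7911853 to 15831938 counted reads, and 3 counts were worth 0.193 to 0.376 CPM. The luminal identity markers summed to 3179 to 3320 CPM without knockdown and 3236 to 3439 CPM with it, and 8 of 8 were measured. Only 2 of 8 basal markers (DST and ITGB4) and 2 of 8 neuroendocrine markers (ENO2 and SYP) were in the table, and KRT5, KRT14, TP63 and CHGA were not analysed here. Of 13 stromal, endothelial and immune markers 8 were measured, and they summed to 85.95 to 98.8 CPM without and 85.9 to 94.9 CPM with knockdown. The libraries with replicate number 2 stood apart from numbers 1 and 3 in both groups, so the values below are given by pair as well as by group.

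ACPP, which encodes prostatic acid phosphatase, fell furthest. It read 96.3, 116.3 and 102.0 CPM in no-knockdown cultures 1, 2 and 3 and 35.4, 62.8 and 37.1 CPM in knockdown cultures 1, 2 and 3. Every knockdown library lay below every library without knockdown, and knockdown culture 2 kept the most. The mean went from 104.9 ± 10.3 to 45.1 ± 15.3 CPM (SD, n = 3 each), to 42.8% of its level (log2 fold change -1.22, SE 0.21, edgeR quasi-likelihood adjusted p = 0.0316). With the replicate number as a block the change was -1.25 (SE 0.10, edgeR adjusted p = 1.54e-05). Knockdown left 36.8%, 54.0% and 36.4% of the transcript in pairs 1, 2 and 3. In the authors' deposited table, ACPP has a log2 fold change of -1.22 and a false discovery rate of 4.97e-07. ACPP was the only 1 of the 8 past the threshold of 0.05 without the block, where 1.14% of all genes were called lower and 0.337% higher. That call needed all of the libraries except knockdown replicate 2: without any of the other 5 the edgeR adjusted p lay between 0.102 and 0.147, and without knockdown replicate 2 it was 0.0001875.

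KLK3 and KLK2 were each lower with knockdown in 3 of 3 pairs, but their groups overlapped because replicate 2 was high on both sides. KLK3 read 153, 250.5 and 159 CPM without knockdown and 109, 199 and 102 CPM with it. Knockdown culture 2 therefore lay above no-knockdown cultures 1 and 3. The unblocked log2 fold change of KLK3 was -0.46 (SE 0.31, edgeR adjusted p = 0.576). The blocked one was -0.49 (SE 0.068, edgeR adjusted p = 4.56e-04), with differences of -0.49, -0.33 and -0.64 in pairs 1, 2 and 3.

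KLK2 encodes the kallikrein that can activate the precursor of prostate-specific antigen. It had 15.4, 24.4 and 14.7 CPM without knockdown and 9.59, 16.6 and 8.35 CPM with it. As for KLK3, culture 2 was the highest of each group and its knockdown value exceeded both other no-knockdown values. The log2 fold change of KLK2 was -0.68 without the block (SE 0.29, edgeR adjusted p = 0.345) and -0.67 with it (SE 0.12, edgeR adjusted p = 0.00229), and knockdown left 62.3%, 68.1% and 56.9% in the 3 pairs. KLK2 had at most 238 reads in a library, which gives each pair difference a counting error of 0.14 to 0.18 on the log2 scale, and the 3 differences ran from -0.81 to -0.55.

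KLK4, a protease that can activate other kallikreins, was not called in any of the fits. Its libraries had 20.4, 17.1 and 19.2 CPM without knockdown and 22.9, 16.04 and 24.0 CPM with it. Knockdown was higher in pairs 1 and 3 (0.17 and 0.32 on the log2 scale) and lower in pair 2 (-0.09), and the groups overlapped. The blocked log2 fold change of KLK4 was 0.14 (95% interval -0.09 to 0.38, edgeR adjusted p = 0.475). KLK4 shared 0% of its 50-base exon windows with another gene and KLK3 and KLK2 each under 0.5%, so few exact matches of that length could be placed in more than 1 of them.

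TMPRSS2, the membrane serine protease whose promoter is often fused to ERG in prostate cancer, followed KLK3 closely. It read 84.7, 129.5 and 95.4 CPM without knockdown and 61.4, 106 and 60.0 CPM with it. The knockdown library of pair 2 again exceeded no-knockdown cultures 1 and 3. The log2 fold change of TMPRSS2 was -0.45 without the block (SE 0.25, edgeR adjusted p = 0.482) and -0.47 with it (SE 0.078, edgeR adjusted p = 0.00166), lower in 3 of 3 pairs.

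SLC45A3, which encodes prostein, had 63.2, 58.6 and 65.3 CPM without knockdown and 42.6, 54.6 and 40.7 CPM with it. Its groups did not overlap, but pair 2 moved little. The differences were -0.57, -0.10 and -0.68 on the log2 scale in pairs 1, 2 and 3, each with a counting error of 0.085 to 0.088. The log2 fold change of SLC45A3 was -0.44 (SE 0.11, edgeR adjusted p = 0.0990) without the block and -0.45 (SE 0.10, edgeR adjusted p = 0.0130) with it. The authors' deposited table gives SLC45A3 a false discovery rate of 0.0209, and DESeq2 without the block gave it an adjusted p of 0.0460. For KLK2, KLK3 and TMPRSS2 the authors' rates are 0.226, 0.461 and 0.368, all over 0.05.

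FOLH1 read 2353, 2433 and 2363 CPM without knockdown and 2353, 2136 and 2355 CPM with it. Pairs 1 and 3 were level to within 0.005 on the log2 scale, and pair 2 was at -0.19. The blocked log2 fold change of FOLH1 was -0.06 with a 95% interval of -0.20 to 0.07 (edgeR adjusted p = 0.596). FOLH1 shares 28.1% of its 50-base exon windows with the copy FOLH1B, so part of its reads could have been counted there. FOLH1B had 1.64 to 6.08 CPM in the 6 libraries, well under FOLH1.

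AMACR was slightly higher with knockdown in every pair. It had 36.9, 39.5 and 41.8 CPM without knockdown and 43.0, 42.7 and 47.9 CPM with it, and the lowest knockdown library stood just above the highest library without. The log2 fold change of AMACR was 0.18 in both fits, with a blocked 95% interval of 0.01 to 0.35 and edgeR adjusted p-values of 0.408 without and 0.201 with the block. It passed neither. AMACR shares 51.5% of its exon windows with the read-through gene C1QTNF3-AMACR on the same strand, which had 3.38 to 6.68 CPM, so its count is uncertain to the extent that reads were split or dropped. None of the 8 genes has an exon that overlaps another gene on the opposite strand in GENCODE 29.

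**Figure D2:**
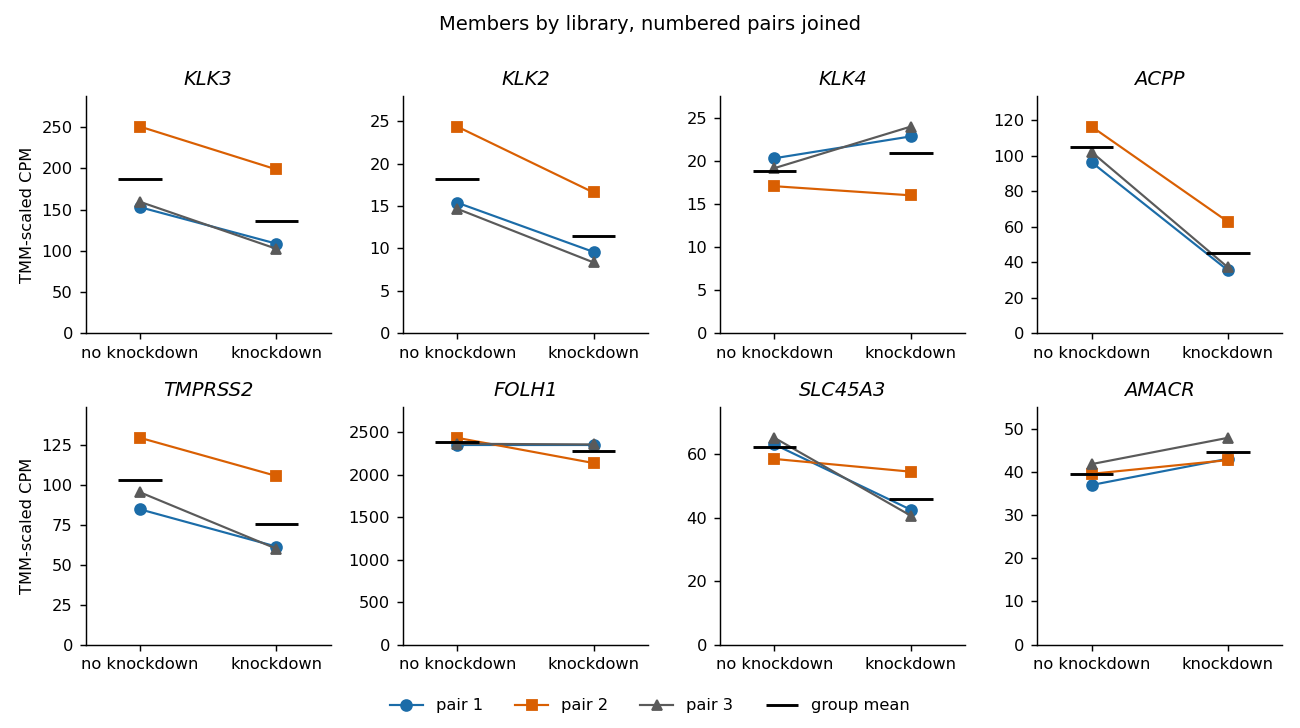
TMM-scaled CPM of each gene in every library, with lines joining the no-knockdown and knockdown cultures of the same number and black bars for group means (n = 3). Pair 2, drawn with squares, lies above pairs 1 and 3 on both sides for KLK3, KLK2, TMPRSS2 and ACPP, and KLK4 and AMACR have higher group means with knockdown.

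As a group, 5 of 8 genes (KLK2, KLK3, ACPP, TMPRSS2 and SLC45A3) were lower with the replicate block and 0 were higher, where 5.1% of all genes were called lower and 3.21% higher. Without the block 1 was lower and 0 were higher. At an unadjusted edgeR p under 0.05 there were 3 lower and 0 higher without the block, and 5 lower and 1 higher (AMACR) with it, and neither DESeq2 nor limma-voom called any of the 8 higher. The share of all genes at an unadjusted p was not counted, so unadjusted counts here and below cannot be judged against it. The median log2 fold change of the 8 was -0.45 without and -0.46 with the block, and over all genes it was -0.002 in both fits. The direction was lower in 3 of 3 pairs for 6 of the 8 genes (22.8% of all genes), FOLH1 by next to nothing in pairs 1 and 3, and higher in 3 of 3 for AMACR (20.9% of all genes). Groups that did not overlap were found for ACPP and SLC45A3 on the lower side, as for 11.6% of all genes, and for AMACR on the higher side, as for 8.22%. For each of these 3 genes the two-sided exact permutation p was 0.1, and no smaller p can come from 3 against 3 libraries.

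**Figure D3:**
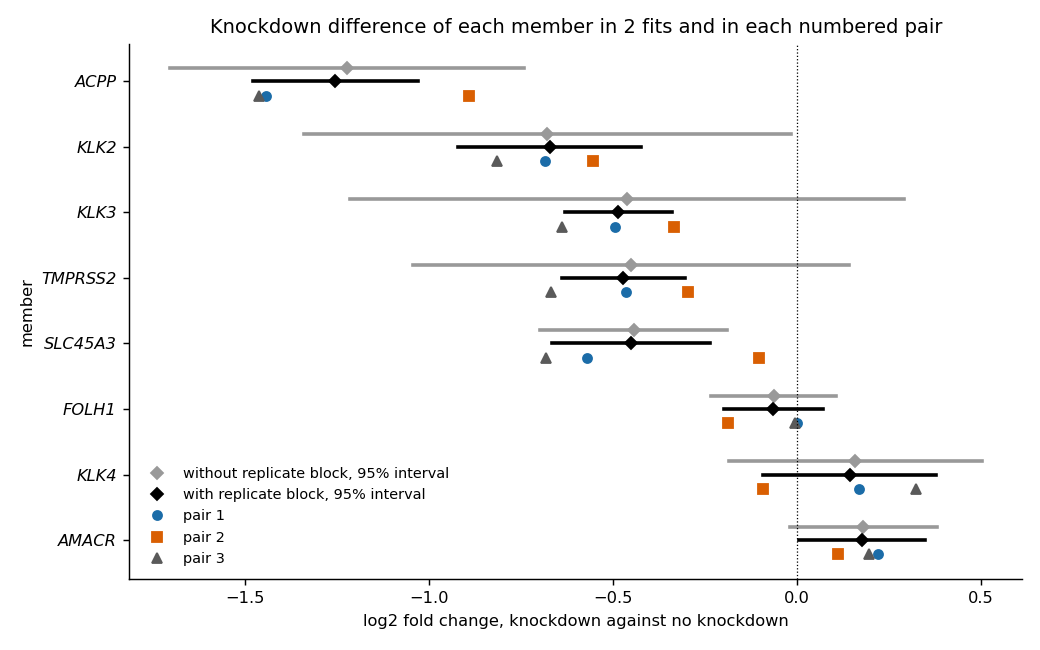
Log2 fold change of each gene, knockdown against no knockdown, from edgeR without the replicate block (grey) and with it (black), each with its 95% interval, and the difference in each numbered pair. The block narrows the interval of KLK3 from -1.21 to 0.29 to -0.63 to -0.34 and leaves the estimates almost in place, and pair 2 shows the smallest fall of the 5 genes called lower.

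Which libraries entered decided how many of the 8 were called. With pairs 1 and 3 only, and no block, the same 5 genes were lower, where 9.12% of all genes were. With the block, 5 were lower from pairs 1 and 3 (9.94% of all genes). From pairs 2 and 3 (2.18% of all genes) or pairs 1 and 2 (2.14%) 4 were lower, and SLC45A3 was the 1 lost. Without knockdown replicate 2 and without the block 4 were lower (KLK2, ACPP, TMPRSS2 and SLC45A3), where 2.08% of all genes were, and without any other single library 0 were. None of the 8 changed sign in any of 19 fits, in which the log2 fold change ranged from -1.53 to -1.07 for ACPP, from -0.83 to -0.20 for KLK3 and from -0.63 to -0.33 for SLC45A3.

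Replicate 2 differed from replicates 1 and 3 by a pattern that ran through part of the group. For KLK3, culture 2 lay above the mean of cultures 1 and 3 by 0.68 on the log2 scale without knockdown and by 0.91 with it. The offsets were 0.70 and 0.89 for KLK2 and 0.53 and 0.80 for TMPRSS2. These 3 genes were beyond the 95th percentile of all genes (0.41 in either group) on both sides. ACPP had an offset of 0.23 without knockdown and 0.79 with it, and SLC45A3 went from -0.13 to 0.39, so for these genes replicate 2 stood high mainly among the knockdown cultures. KLK4 went the other way (-0.21 and -0.55), while FOLH1 and AMACR lay within 0.14. The labels do not say what the replicate numbers share, and the part of culture conditions in these offsets was not tested.

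**Figure D4:**
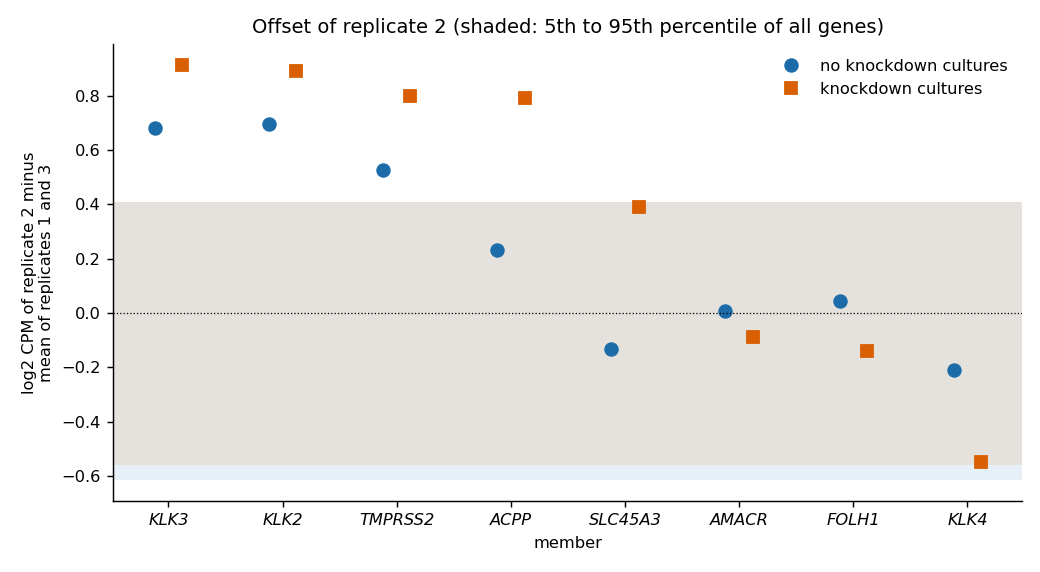
Difference in log2 CPM between replicate 2 and the mean of replicates 1 and 3, for each gene without knockdown (circles) and with it (squares). Shading marks the 5th to 95th percentile of all 12768 genes in each group. KLK3, KLK2 and TMPRSS2 lie above the shading in both groups and ACPP only among the knockdown cultures.

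A ratio to KLK3 within a library removes what a gene shares with KLK3. Where a gene does not share them, the ratio carries the fall of KLK3 and its offset in replicate 2. The log2 ratio of ACPP to KLK3 was -0.67, -1.11 and -0.64 without knockdown and -1.62, -1.66 and -1.47 with it, so the groups did not overlap and ACPP fell short of KLK3 by a further 0.78 on the log2 scale in the mean. KLK2 against KLK3 moved by -0.19, from -3.31, -3.36 and -3.44 to -3.50, -3.58 and -3.62, also without overlap. Each of these gave an exact permutation p of 0.1 (two-sided), the smallest possible, and an adjusted p of 0.35 over the 7 ratios compared. TMPRSS2 against KLK3 moved by 0.01 (exact permutation p = 0.9), and by -0.03 to 0.04 in single pairs. SLC45A3 against KLK3 moved by 0.04 on average but by -0.08 to 0.23 between pairs (exact permutation p = 1). The ratios of KLK4, FOLH1 and AMACR to KLK3 were higher with knockdown in 3 of 3 pairs, by 0.62, 0.42 and 0.66, with groups that overlapped (exact permutation p = 0.3 each). By themselves these genes had log2 fold changes of 0.16, -0.06 and 0.18 without the block, so the ratios carry the fall of KLK3.

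Genes whose average log2 CPM was 2 or more were also ranked by the likeness of their profile over the 6 libraries, measured as the root mean square difference of log2 CPM centred on the gene's own mean. This is a description, and the genes share the same 6 libraries. The profile includes the difference between the groups. A gene near KLK3 or ACPP therefore has a like fold change by its selection, and its p-value is no separate result. Of 11467 genes, TMPRSS2 was the nearest to KLK3, at 0.074, and KLK2 was the fourth, at 0.11. Near it outside the 8 were CNKSR3, which encodes a scaffold protein (0.11), and LOC101927391 (0.12), against a median of 0.46 over all genes compared. CNKSR3 had 21.1, 32.7 and 22.6 CPM without knockdown and 12.3, 27.3 and 13.3 CPM with it, high in culture 2 of both groups like KLK3. Its log2 fold change was -0.54 without the block (edgeR adjusted p = 0.508) and -0.57 with it (edgeR adjusted p = 0.00815).

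ACPP had other neighbours. The nearest to it were DCDC2, a doublecortin-domain gene (0.14), RNF14, which encodes a ubiquitin ligase (0.17), and COLCA1 (0.20), against a median of 0.70. Among the 8 genes the nearest to ACPP was KLK2, at 0.34 and rank 44, and KLK3 ranked 138. RNF14 read 117, 127 and 110.5 CPM without knockdown and 45.4, 57.2 and 46.7 CPM with it. It fell by 1.25 on the log2 scale (edgeR adjusted p = 4.33e-04). COLCA1 fell by 0.97 (edgeR adjusted p = 0.0130, and 0.0534 to 0.0867 without replicate 1 or 3 of either group), from 312 ± 13.3 to 159.9 ± 36.2 CPM. DCDC2 had a log2 fold change of -0.99 (edgeR adjusted p = 0.0859) without the block and -1.01 (edgeR adjusted p = 2.42e-04) with it.

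Other genes of the same pathways were read from lists chosen with earlier results of these data known. Over 15 lists with 108 measured genes, 5 were lower and 0 higher without the block, where 1.14% of all genes were lower and 0.337% higher. With it 18 were lower and 9 higher, where 5.1% and 3.21% of all genes were, but the same blocked design in DESeq2 called 9 lower and 4 higher. The 5 included SORD, RHOU, TMPRSS11E and EHHADH. TMPRSS11E kept its call without each single library (edgeR adjusted p up to 0.0154). SORD, RHOU and EHHADH lost it without replicate 1 or 3 of either group, with edgeR adjusted p-values of 0.0966 to 0.272, and EHHADH also without no-knockdown replicate 2 (0.0522). RHOU also lost it with library totals only (edgeR adjusted p = 0.0554) and by limma-voom (0.0505). The list of transcription factors and coregulators of the androgen response held 16 genes, and 16 of 16 were measured. It does not hold every coregulator, and RNF14, named above, was not in it. By edgeR without the block 0 of the 16 were called in either direction, with 1 lower and 3 higher at an unadjusted p under 0.05. DESeq2 and limma-voom without the block called 0, and the list's median log2 fold change was 0.13. FOXA1, a pioneer factor of the luminal cell, had 546 ± 4.04 and 590.3 ± 1.34 CPM and a log2 fold change of 0.11 (edgeR adjusted p = 0.503). With the block 3 coactivator genes rose, NCOA3 by 0.23 (edgeR adjusted p = 0.0452), EP300 by 0.26 (0.0421) and CREBBP by 0.27 (0.0455), and 1 gene fell. None of these 3 coactivator genes passed with the block in DESeq2 (adjusted p = 0.161 to 0.215).

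Of 22 other androgen-induced genes measured of 24 listed, 2 fell without the block. SORD, which encodes sorbitol dehydrogenase, went from 133 ± 5.82 to 104.1 ± 3.59 CPM (edgeR adjusted p = 0.0370), and RHOU, a small GTPase gene, from 68.5 ± 7.40 to 49.7 ± 2.00 CPM (edgeR adjusted p = 0.0415). With the block 6 fell, among them RHOU, HERC3, C1orf116 and SORD, and 1, UAP1, rose, by 0.37. The list's median log2 fold change was -0.10 and 14 of 22 were below 0. Of 13 other luminal surface and secretory genes measured of 23 listed, 0 were called by edgeR without the block (4 lower at an unadjusted p under 0.05) and 4 fell with it (STEAP2, TSPAN1, KRT18 and MME), with a median of -0.04. With the block in DESeq2 STEAP2 passed, and the others had adjusted p-values of 0.0795 to 0.170. Without the block DESeq2 called 1 of them, STEAP2, and limma-voom 0. STEAP2, a metalloreductase of the prostate cell membrane, went from 3944 ± 405 to 3165 ± 74.0 CPM (edgeR adjusted p = 0.139 without and 0.00697 with the block). AZGP1, which encodes a secreted zinc-binding glycoprotein, had 2.74 ± 0.165 and 1.54 ± 0.468 CPM (edgeR adjusted p = 0.186 without and 0.0756 with the block).

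Relatives of the single genes gave few calls. Of the kallikrein locus, only the pseudogene KLKP1 was measured beside the 3 genes above, at 1.69 ± 0.286 and 1.70 ± 0.238 CPM, and the other 12 listed were not analysed here. Of 5 membrane serine proteases related to TMPRSS2, TMPRSS11E fell by 2.33 on the log2 scale, from 6.86 ± 1.04 to 1.350 ± 0.0568 CPM (edgeR adjusted p = 8.40e-04). It had only 56 to 77 reads per library without knockdown and 14 to 22 with it. Each pair difference thus had a counting error of 0.36 to 0.43 on the log2 scale. TMPRSS6 fell with the block in edgeR (-0.77, adjusted p = 0.0243) but did not pass with it in DESeq2 (adjusted p = 0.339). The 6 other acid phosphatases and ectonucleotidases gave 0 calls in either edgeR fit, by DESeq2 or by limma-voom, with 2 lower and 1 higher at an unadjusted edgeR p under 0.05. Their smallest p-values were those of ENPP1 (log2 fold change -0.35, edgeR adjusted p = 0.161, and 0.0538 with the block) and ENTPD3 (-0.80, edgeR adjusted p = 0.244). Of 9 genes for folate handling and glutamate carboxypeptidases, NAALAD2, a relative of FOLH1, rose with the block (0.59, edgeR adjusted p = 0.00411), with 20.3, 12.2 and 19.3 CPM without and 33.5, 14.7 and 30.8 CPM with knockdown.

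The 3 SLC45 genes beside SLC45A3 gave 0 calls in either edgeR fit, by DESeq2 or by limma-voom, and 0 at an unadjusted edgeR p under 0.05 without the block and 1 with it, with SLC45A2 at 0.27 and SLC45A4 at 0.17 (edgeR adjusted p = 0.487 and 0.527). Of 5 serine protease inhibitors, SERPINB6 fell with the block in edgeR (-0.27, adjusted p = 0.0155, and 0.0970 with the block in DESeq2) and SERPINI1 did not pass (0.22, edgeR adjusted p = 0.273). Of 16 measured genes listed for peroxisomal branched-chain oxidation, the pathway that AMACR feeds, 2 fell without the block. Not every gene of the list acts in that pathway alone. EHHADH went from 15.3 ± 0.907 to 9.78 ± 0.470 CPM (edgeR adjusted p = 0.0304). HSD17B4 and ACOX3 of the same list had log2 fold changes of -0.01 and 0.08 without the block (edgeR adjusted p = 0.965 and 0.824). With the block 3 were lower, ABCD3 among them, while SCP2 and HACL1 rose. With the block in DESeq2 SCP2 passed, and ABCD3, HACL1 and EHHADH did not (adjusted p = 0.0898, 0.158 and 0.0723), and the median over the list was -0.03. Of the ETS genes that TMPRSS2 or SLC45A3 can be fused to, only ETV1 was measured. ETV1 had 137, 180.1 and 135 CPM without knockdown and 199, 229 and 219 CPM with it (log2 fold change 0.52, edgeR adjusted p = 0.0575), and it passed with the block (0.53, edgeR adjusted p = 3.03e-04).

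Among the 20 genes of the marker lists, 0 were called in either direction by edgeR or limma-voom without the block, 3 were lower and 2 higher at an unadjusted edgeR p under 0.05, and DESeq2 called VIM lower. With the block 2 of the luminal identity markers fell, KRT18 among them, as did DST of the basal markers and VIM of the stromal markers, and COL3A1 rose. With the block in DESeq2 VIM passed (adjusted p = 0.0466), while KRT18, DST and COL3A1 did not (adjusted p = 0.170, 0.262 and 0.132). VIM had 20.4 ± 2.38 and 13.1 ± 2.20 CPM, and COL3A1 had 9.97 ± 0.180 and 15.03 ± 2.35 CPM. HOXB13, a luminal homeobox gene, had a log2 fold change of 0.26 (edgeR adjusted p = 0.317), ENO2 one of -0.09, SYP one of -0.26 and ITGB4 one of -0.07. The part of these marker levels in the changes of the 8 genes was not tested.

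**Figure D5:**
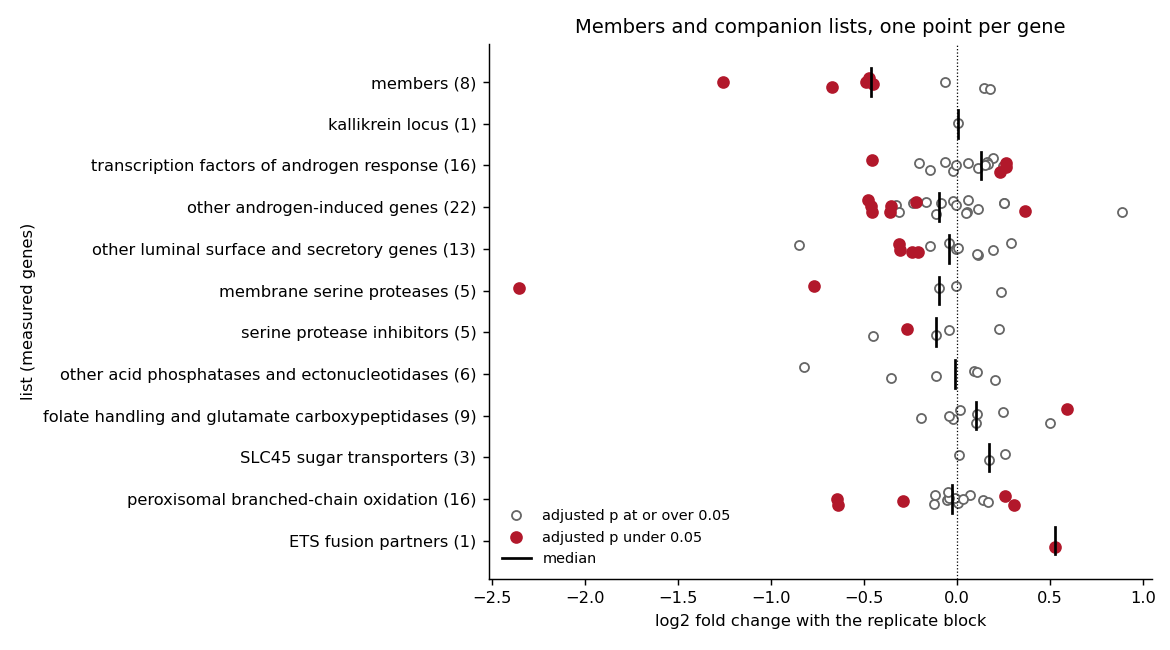
Blocked log2 fold change of the 8 genes, here called members, and of each list of related genes, with 1 point per gene, filled where the adjusted p is under 0.05 over all 12768 genes, and a black bar at the list's median. The 8 genes have a median of -0.46, and the 22 other androgen-induced genes one of -0.10.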

How the data were processed

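Per the labels' protocols, RNA of 6 LNCaP cultures, 3 per group, was extracted with Trizol and made into libraries with NEBNext Ultra II. The submitters' processing notes list build hg38 and the tools edgeR 3.20.8, STAR 2.5, bcl2fastq and featureCounts, with Subread 1.6.5. The authors deposited raw read counts per gene and, per the file headers, log2 CPM per library and log2 fold changes with p-values and false discovery rates. The sources used here do not give the annotation, the strand setting or the low-count filter. Every gene of the table exceeds 1 CPM in at least 3 libraries. Coordinates of the table are of a build other than hg38, so positions come from GENCODE 29 and promoters from RefSeq (GRCh38.p14), matched by symbol for 6 of 8 genes.

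Counts were fitted by robust quasi-likelihood (edgeR 4.0.16, R 4.3.3) with group as the term and TMM scaling. A filterByExpr step, set to a count of 10 and a total of 15, took out 0 genes, and p-values were adjusted by Benjamini-Hochberg over all 12768 genes, with a threshold of 0.05. CPM values are TMM-scaled. Alternatives were the replicate number as a block, DESeq2 1.42.0, limma-voom (limma 3.58.1), other scalings and filters, and libraries or pairs left out. The edgeR fits with and without the block were also run on simulated counts. These counts were built with the replicate number as a term, so they do not test the pairing.

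Both groups carry replicate numbers 1 to 3. Deviations from the group means correlated by 0.41, 0.48 and 0.20 between same-numbered libraries over 11468 genes, each above 0.1, so the numbers were taken as pairs. No-knockdown replicate 3 and knockdown replicate 1 correlated by 0.30, and no-knockdown replicate 1 and knockdown replicate 3 by 0.22, so only replicate 2 stands clearly apart. The series calls the cultures biological replicates, and no 2 libraries of a group agreed within sampling noise. No-knockdown replicates 1 and 3 came nearest to it, with a chi-square per degree of freedom of 1.73. The other comparisons within a group gave 7.01 to 20.4. The 95% intervals come from the edgeR fits and include the spread between cultures, while the counting errors and the floors of 3 counts cover counting error only.

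The 8 genes, the lists and the tests were chosen with earlier results of these data known. Named besides the 8 and PRMT5 are, per list, the genes past the threshold and then those with the smallest p until 2 are named, and the 3 nearest in profile to KLK3 and to ACPP. FOXA1, the copies FOLH1B and C1QTNF3-AMACR, and genes called only with the block were chosen after their values were seen. A few genes that these rules take are not reported here.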

Additional observations from a re-analysis of the deposited data

How the results depend on the processing

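The count of the 8 genes called lower was 1 without the block (ACPP), and it stayed 1 under DESeq2 size factors, library totals only, limma-voom, no filter and a minimum of 5 CPM in 3 libraries. It was 2 by DESeq2, 5 with the replicate block, 5 with the block in DESeq2, 5 with pairs 1 and 3 only, and 4, 5 and 4 with the block and pairs 2 and 3, 1 and 3, or 1 and 2 only, fits that were added after seeing the data. Leaving out 1 library gave 0 to 4. The count called higher was 0 in each of these fits. Over all genes, those lower went from 146 to 212 by DESeq2, 651 with the block and 262 with the block in DESeq2. With pairs 1 and 3 only they were 1165. With the block and pairs 2 and 3, 1 and 3, or 1 and 2 they were 278, 1269 and 273. With 1 library left out they were 21 to 266. Those higher went from 43 to 91 by DESeq2, 410 with the block, 171 with the block in DESeq2, 976 with pairs 1 and 3 only, 177, 1122 and 139 with the block and 2 pairs, and 3 to 179 with 1 library left out. Of the listed genes, 5 were lower, against 4 by library totals only, 4 by limma-voom, 8 by DESeq2, 18 with the block, 9 with the block in DESeq2, 23 with pairs 1 and 3 only, 25 and 8 with the block and pairs 1 and 3 or 1 and 2, and 1 to 7 with 1 library left out. None was higher, against 3 by DESeq2, 9 with the block, 4 with the block in DESeq2, 12 with pairs 1 and 3 only, 3, 13 and 4 with the block and 2 pairs, and 0 to 3 with 1 library left out.

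Values near 0 changed sign. The log2 fold change of KLKP1 was -0.0046 by library totals only, -0.0035 by limma-voom, -0.17 with the block and pairs 1 and 2, and -0.11 to 0.11 with 1 library left out. ITGB4 ranged from -0.186 to 0.0116 with 1 library left out, and SYP was 0.0606 with the block and pairs 2 and 3. With 1 pair left out the ratio of TMPRSS2 to KLK3 moved between -0.000712 and 0.0337, and that of SLC45A3 to KLK3 between -0.0599 and 0.0944. The cause of these changes was not tested, apart from the fewer samples that leaving out a library leaves. No other result reversed. With 10 or fewer CPM, as for KLKP1, AZGP1 and TMPRSS11E, few reads limit the precision.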
